A study of Mus musculus with 24 samples.

Results

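Type I interferon stimulated genes are the antiviral effectors that cells switch on when they sense interferon, and 38 of them were followed here in cultured mouse neutrophils. They were taken by gene symbol from a list of classical interferon stimulated genes, and all 38 were among the 48709 genes of each library. RNA was sequenced from Percoll-enriched bone marrow neutrophils of C57Bl/6J mice that were cultured for 4 hours in 6 groups of 4 libraries. All cells were in DMEM with foetal calf serum. One group was left untreated, and the others received insulin at 10 or at 100 ng/mL, IGF1 at 10 ng/mL, IL4 at 20 ng/mL, or LPS at 10 ng/mL combined with IFNγ at 2 ng/mL. LPS/IFNγ is the study's N1 polarizer, the pro-inflammatory stimulus, and IL4 its N2 polarizer, while IGF1 and insulin were the factors under study. Neither the labels nor the study's methods as read here state the age or sex of the mice. LPS and IFNγ were added together, so the part of each agent cannot be told apart. Values are RPKM, the reads of a gene scaled for the length of its exons and for the mapped reads of the library, so each value is a share of reads.

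Each library carries a number, 6, 9, 10 or 11, that recurs once in each group. Libraries with the same number deviated together from their group means, and the numbers are called preparations here. The libraries of a number also follow each other in their running names. Effects of the cells and of library handling can therefore not be told apart, and no source links a number to one animal, so p-values measure the spread between these libraries only. Series of 4 values below follow the order of preparations 6, 9, 10 and 11. The libraries held 18748634 to 30925209 mapped reads. Markers of neutrophils, the labelled cell type (S100a8, S100a9, Ly6g and 9 others) summed to 90327 to 127053 RPKM. Plasmacytoid dendritic cells, known as large producers of type I interferon, had 7 markers summing to 2.02 to 4.13 RPKM in every library, with Klk1 at 0 in 17 of 24. In bulk RNA, fewer cells of a type and less RNA per cell cannot be told apart.

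Type I interferons bind the receptor chains IFNAR1 and IFNAR2, whose kinases JAK1 and TYK2 phosphorylate transcription factors such as STAT2. Together with IRF9, STAT2 is part of a complex that binds the interferon stimulated response element in the promoters of its target genes. IFNγ acts through its own receptor and through gamma activated sites, and raises many of the same genes. LPS acts through TLR4, which can lead to production of IFNβ and so to the same programme. The products cut or hide foreign RNA, sense it, tag proteins with ISG15, limit nucleotides or block viral assembly, and neutrophils are known to carry them in infection, lupus and tumours.

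The response element is shown first because it is the element through which these genes are known to respond. RefSeq promoters (GRCm38.p6, 250 bases before to 50 after the start) matched 29 of the 38 genes. Oas2, Mx1, Mx2, Usp18, Dhx58, Zbp1, Parp9, Parp14 and Rtp4 are named only. GAAANNGAAA, read on both strands, was in 14 of the 29 promoters (48.3%) and in 3.90% of the 18887 promoters of all genes. The shorter GAAANNGAA, which every match of the longer motif also contains, was in 18 (62.1%, against 9.53% of all). TTCNNNGAA, the gamma activated site, was in 8 (27.6%, against 9.23%). The stretches below are those of the ubiquitin-like modifier Isg15, of 3 IFIT genes that stood among the largest responses, and of Rsad2 (viperin). Capitals mark GAAANNGAAA or its reverse complement, all lines run 5′ to 3′ on the strand of the gene, and positions count from the RefSeq start.

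Isg15: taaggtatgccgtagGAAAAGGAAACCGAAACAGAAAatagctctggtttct
Ifit3: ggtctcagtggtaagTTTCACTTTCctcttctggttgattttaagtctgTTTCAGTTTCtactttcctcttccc
Ifit3b: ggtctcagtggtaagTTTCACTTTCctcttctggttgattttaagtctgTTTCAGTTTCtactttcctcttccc
Ifit1: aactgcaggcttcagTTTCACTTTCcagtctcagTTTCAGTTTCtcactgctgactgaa
Rsad2: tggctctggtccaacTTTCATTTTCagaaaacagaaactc

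The Isg15 stretch is chr4:156200860-156200911 (minus strand, −93 to −42) and holds 3 overlapping matches in 1 run of capitals. Ifit3 lies at chr19:34583358-34583431 (plus strand, −171 to −98) and Ifit3b at chr19:34607754-34607827 (plus strand, −203 to −130), and their 74 bases are identical. The Ifit1 stretch, chr19:34640770-34640828 (plus strand, −119 to −61), carries 2 matches as well. Rsad2 has a single match, at chr12:26456548-26456587 (minus strand, −135 to −96). The other promoters with GAAANNGAAA were those of Oas1a, Oas1g, Oas3, Ifih1, Ddx58, Eif2ak2, Trim21, Trim30a and Bst2. A match is a description of letters and not a measured binding site. After LPS/IFNγ the 14 genes with the motif had a median log2 change of 3.54 (2.07 to 6.49), and 14 tested genes without it had one of 2.98 (−0.03 to 6.06). For the other motifs the order was the reverse. The median was 3.31 with GAAANNGAA and 3.73 without, and 2.99 with TTCNNNGAA and 3.91 without. Herc6, Xaf1 and Oasl2, also among the largest changes, matched none of these motifs.

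Untreated neutrophils already held RNA of most of these genes. The mean was at least 10 RPKM for 9 genes, from 1 to 10 for 21, from 0.1 to 1 for 5 and under 0.1 for Mx1, Mx2 and Ifi44, with a median of 4.08 RPKM. The order began with Samhd1 (87 ± 5.58 RPKM), a nucleotide hydrolase, followed by Samd9l (77.5), Sp100 (29), Cmpk2 (26.6) and Trim25 (25.2). Neighbours in this order overlapped in range for 33 of 37 neighbouring pairs. Samhd1 and Samd9l overlapped, while Samd9l and Sp100 did not.

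LPS/IFNγ raised nearly the whole family. It was compared with untreated cells to ask how far the pro-inflammatory stimulus moves the programme, and 36 of the 37 genes that could be tested rose while none fell. The background was 8.15% of 13062 genes called higher and 17.8% called lower. A call needed an adjusted p under 0.05 by limma (Benjamini-Hochberg over all genes tested) and a change of at least 1.5-fold. All 4 treated libraries lay above all 4 untreated ones for the same 36 genes, against 10.9% of all genes. The median log2 change of the family was 3.54 (quartiles 2.86 and 4.39), on the scale of log2(RPKM + 0.1), which understates the change of low genes, and the median of all genes was −0.22. Reads of the 38 genes made up 0.232% ± 0.00512 of mapped reads in untreated cells and 1.94% ± 0.0784 after LPS/IFNγ (SD, n = 4 libraries each). In the treated cells 34 genes stood at 10 RPKM or more and the median was 47.7 RPKM. Mx1 and Mx2 passed the filter on low values through the treated libraries alone and lend no weight to the count. Ifi44 was not tested, at 0.00745, 0.0245, 0 and 0.00692 RPKM untreated (6 reads in all) and 0.26, 0.0993, 0.252 and 0.142 after LPS/IFNγ (110 reads).

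The IFIT proteins, which bind foreign RNA and keep it from the ribosome, rose in all 4 cases with a median log2 change of 5.89. Their genes form a cluster on chromosome 19 (GRCm38) from Ifit2 (34550694 to 34576419) to Ifit1 (34640871 to 34650009), all on the plus strand. Ifit3, a partner that stabilises the complex, stood at 5.41, 1.46, 1.53 and 1.43 RPKM untreated and at 233, 149.8, 207 and 193 after LPS/IFNγ. The untreated library of preparation 6 was the high one, and every treated library was far above it. The log2 change was 6.49 (SE 0.43, adjusted p = 1.21e-05). Its near-identical copy Ifit3b went from 3.63, 1.07, 1.1 and 0.954 to 124, 93.2, 116 and 103 RPKM, 6.15 on the log2 scale (SE 0.39, adjusted p = 8.65e-06). Reads of Ifit3 and Ifit3b may be shared between them, so their separate levels are uncertain. Ifit1, which recognises RNA caps that lack a host mark, was at 1.72, 1.02, 0.617 and 0.798 RPKM untreated and 58.4, 41.2, 55.5 and 57.4 treated, with preparation 9 the lowest of the treated libraries. Its change was 5.62 (SE 0.27, adjusted p = 7.48e-07). Ifit2 rose from 3.0 to 41.4 RPKM (3.73), the figure in parentheses here and below being the log2 change.

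The OAS family includes the enzymes that make the oligoadenylate messenger that activates RNase L, and its 6 members rose with a median log2 change of 3.42. Oasl2 (chromosome 5, 114896936 to 114912234, plus strand) held 17.9, 9.24, 11.2 and 13.1 RPKM untreated and 469.5, 447, 507 and 468 after LPS/IFNγ, the second highest level of the family in treated cells. The groups were far apart, with a log2 change of 5.23 (SE 0.17, adjusted p = 5.60e-08). Its neighbour Oasl1, known in mice to restrain translation of Irf7, rose from 1.37 to 25.2 RPKM (4.10). Among the synthetases, Oas2 rose from 3.98 to 45.5 RPKM (3.54). Oas3 went from 10.9 to 107 RPKM (3.31). Oas1a rose from 5.35 to 49.8 RPKM (3.21) and its close copy Oas1g from 0.828 to 8.57 RPKM (3.25), with the treated Oas1g libraries spread from 4.25 to 13 RPKM. Oas1a and Oas1g are similar enough to share reads.

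ISG15 and the enzymes around it were among the strongest responses. Isg15 (chromosome 4, 156199424 to 156200818, minus strand) was at 3.92, 3.38, 1.85 and 1.91 RPKM untreated and 134, 113, 141 and 143 after LPS/IFNγ. Preparations 6 and 9 held more Isg15 than 10 and 11 before treatment, an order not seen after it. The log2 change was 5.60 (SE 0.24, adjusted p = 5.14e-07). Herc6, the main ligase that attaches ISG15 in mice, went from 0.75, 0.652, 0.731 and 0.713 to 49.8, 46.6, 64.3 and 56.4 RPKM. The untreated libraries lay close together, and the change was 6.06 (SE 0.10, adjusted p = 3.60e-10). Usp18, which removes ISG15 and dampens the type I receptor, rose from 0.568 to 15.4 RPKM (4.55).

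Mx GTPases, which trap viral nucleocapsids, stayed close to the limit of detection. Laboratory strains such as C57BL/6 are known for a defective Mx1 gene, and the annotation lists Mx2 as a polymorphic pseudogene. Mx1 was at 0.10, 0.0721, 0.0438 and 0.093 RPKM untreated (27 reads in all) and 0.777, 0.298, 0.936 and 0.621 treated (230 reads), a log2 change of 2.02. Mx2 (chromosome 16, 97535308 to 97560900) was at 0.0505, 0.0208, 0.0332 and 0.0469 RPKM untreated and 0.155, 0.108, 0.221 and 0.206 treated, from 13 to 61 reads. The Mx2 groups did not overlap, and the change of 0.97 (SE 0.21, adjusted p = 0.00414) shrank to 0.18 and was no longer called when 1 in place of 0.1 was added before taking logs. It was not called either when a 2-fold change was required, and it was not tested when any LPS/IFNγ library was left out.

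The 6 sensors of foreign nucleic acid all rose, with a median log2 change of 2.81. Zbp1 (chromosome 2, 173206612 to 173218923, minus strand), which senses Z-form RNA and DNA and can start necroptosis, had the largest change of the family. It was at 1.16, 0.543, 0.385 and 0.805 RPKM in untreated and at 189.8, 161, 182 and 206 in treated libraries. No untreated library reached 2 RPKM, and the change was 7.89 (SE 0.27, adjusted p = 1.20e-07). Among the RNA helicases, Ifih1 (MDA5) rose from 1.07 to 19 RPKM (4.03), Dhx58 (LGP2) from 2.46 to 16.8 RPKM (2.72) and Ddx58 (RIG-I) from 9.56 to 40.4 RPKM (2.07). Eif2ak2, the kinase PKR that halts translation, rose from 5.15 to 39 RPKM (2.90). Adar, which edits double-stranded RNA and so hides it from these sensors, moved least of the group. It was at 13, 13.2, 13.7 and 13 RPKM untreated and 40.6, 42.6, 40.3 and 44.4 treated, without overlap, a change of 1.66 (SE 0.05, adjusted p = 1.59e-08).

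Genes of nucleotide and RNA metabolism rose in 4 of 4 cases. Rsad2 (viperin), which makes a chain-terminating nucleotide, and its neighbour Cmpk2, which supplies the substrate, lie 12.8 kb apart on chromosome 12. Rsad2 rose from 7.87 to 108 RPKM (3.81) and Cmpk2 from 26.6 to 112 RPKM (2.07). Samhd1 remained the most abundant gene of the family and rose from 87 to 732 RPKM (3.07), above every other member without overlap. The exonuclease Isg20 rose from 4.17 to 28.9 RPKM (2.88).

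Parp14, an ADP-ribosyl transferase, rose from 7.64 to 162 RPKM (4.39). Parp9 and the ubiquitin ligase Dtx3l, which act as a complex, rose from 6.14 to 75.9 RPKM (3.61) and from 7.84 to 128 RPKM (4.01). Parp9 (chromosome 16, 35938470 to 35972605, plus strand) and Dtx3l (35926511 to 35939151, minus strand) overlap at their starts, and neither labels nor methods say whether reads were counted by strand, so some reads of the pair cannot be assigned. Of the TRIM ubiquitin ligases, Trim21, a cytosolic antibody receptor, rose from 3.51 to 37.3 RPKM (3.39), and Trim30a, known in mice to restrain TLR signalling, from 13.5 to 176 RPKM (3.69). Trim25, which ubiquitinates RIG-I, was the exception. It stood at 25.7, 25.9, 24.6 and 24.5 RPKM untreated and 24.1, 25.9, 24.7 and 23.6 after LPS/IFNγ. The groups overlapped, with a log2 change of −0.03 (95% interval −0.15 to 0.08, adjusted p = 0.626). Relative to the median of all genes, which a median-of-ratios scaling moves from −0.22 to 0.00, Trim25 was 0.21 higher (adjusted p = 0.00834 by limma, in a range up to 0.874 over the alternatives), below the 1.5-fold bound.

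The remaining effectors were called higher in 6 of 6 tested cases. Xaf1, a cell death promoting factor, went from 0.35, 0.20, 0.213 and 0.317 to 16.3, 11.8, 14.3 and 15.6 RPKM. That is a log2 change of 5.32 (SE 0.16, adjusted p = 1.14e-08) with no overlap. Rtp4, a receptor chaperone, rose from 7.38 to 147 RPKM (4.32), Bst2 (tetherin), which holds budding virus at the membrane, from 1.68 to 16.5 RPKM (3.25), and Ifi35 from 4.82 to 35.7 RPKM (2.86). Sp100, a nuclear body protein, was at 30, 27.5, 27.6 and 31.1 RPKM untreated and 92.5, 88.3, 99.1 and 91.7 treated. Its groups were apart although the change was one of the smallest (1.67, SE 0.06, adjusted p = 4.02e-08). Samd9l, a restriction factor that blocks translation, varied widely between untreated libraries. It was at 38.4, 81.9, 97.8 and 91.8 RPKM untreated and 205, 266, 258 and 265 treated, a change of 1.76 (SE 0.29, adjusted p = 0.00126). With all 24 libraries in 1 fit the Samd9l call was lost (adjusted p = 0.0611 by limma, the highest of all alternatives).

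**Figure D1:**
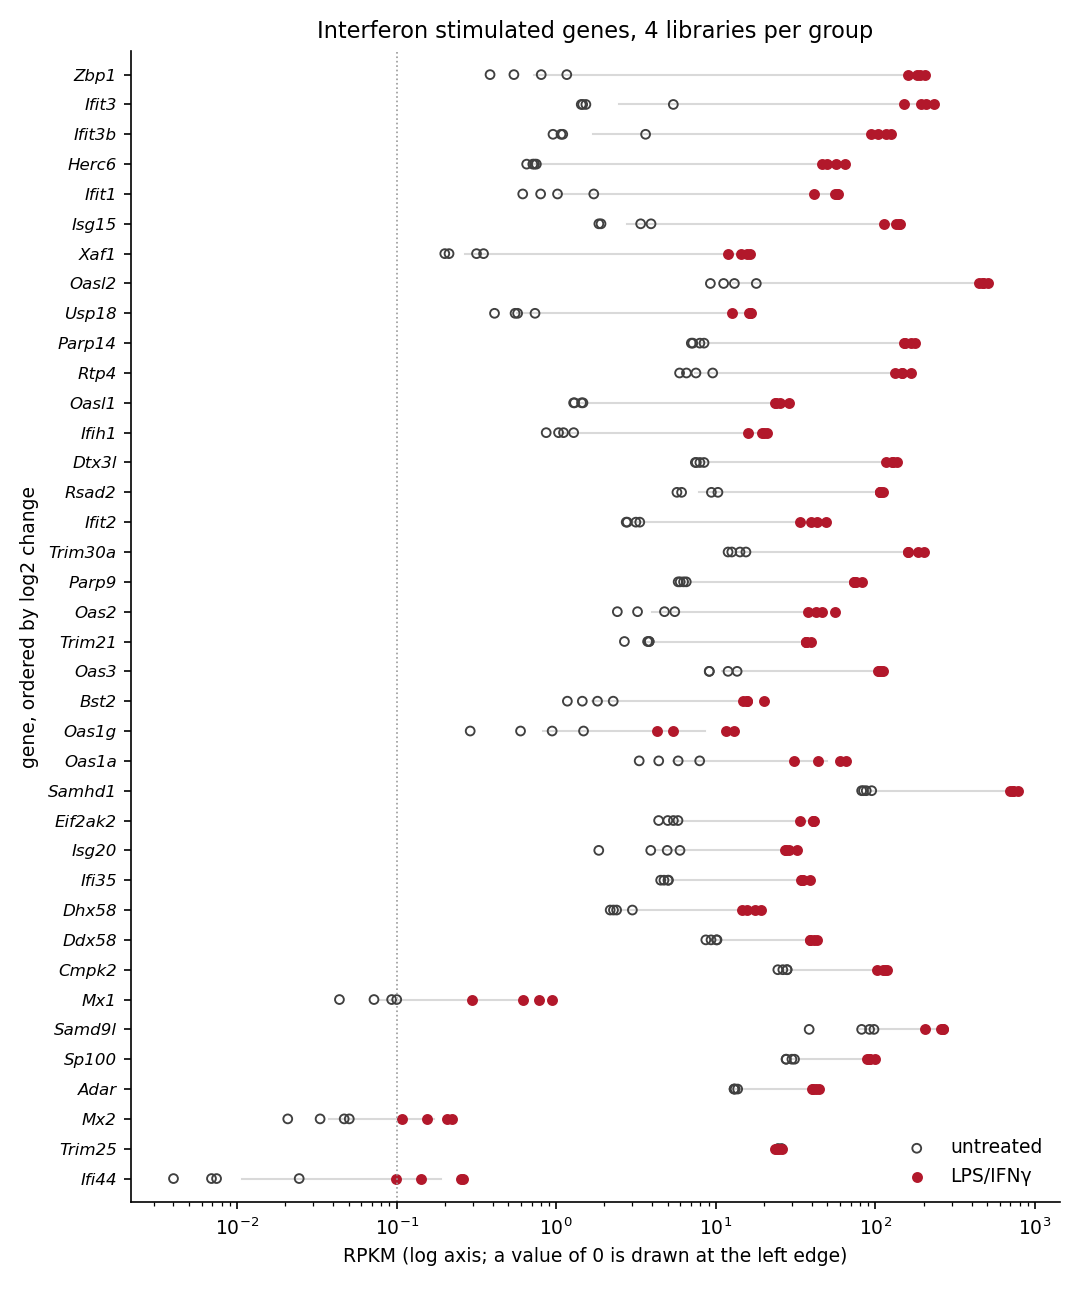
RPKM of each of the 38 genes on a log axis, 1 row a gene, ordered by log2 change. Open circles are the 4 untreated libraries, red circles the 4 LPS/IFNγ libraries, the grey line joins the group means, the dotted line marks 0.1 RPKM and a value of 0 is drawn at the left edge. The red circles lie right of the open ones for every gene but Trim25, from a change of 7.89 for Zbp1 down to −0.03.

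A list of 52 genes of interferon production and signalling was read beside the family. LPS/IFNγ raised 20 of its 36 tested genes (8.15% of all genes) and lowered 1 (17.8% of all), the adaptor Ticam1 (5.89 to 2.8 RPKM). RNA of IFNβ was low or undetected at 4 hours, and its protein was not measured. Ifnb1 was listed at 0 in all untreated libraries and at 0.213, 0, 0.356 and 0.0431 RPKM after LPS/IFNγ (10 reads in all), and 12 Ifna genes of the list were at 0 in all 24 libraries. Of the transducers, Stat2 rose from 6.7 to 89.6 RPKM (3.72) and Irf9 from 10.7 to 42.2 RPKM (1.97). Irf7, which drives interferon production, rose from 4.34 to 74.3 RPKM (4.07) and Irf1 from 25.7 to 565 RPKM (4.45), and Irf2 from 39.6 to 82.9 RPKM (1.06). The feedback inhibitors Socs1 and Socs3 rose by 5.32 and 5.37 on the log2 scale. The adaptors Myd88 and Tmem173 (STING) rose from 42.6 to 116 and from 8.81 to 24.9 RPKM. The receptors changed by less than the 1.5-fold bound and were not called, with log2 changes of −0.35 for Ifnar1, 0.35 for Ifnar2, −0.58 for Ifngr1 and −0.26 for Ifngr2. For each of them the treated and untreated libraries did not overlap. Ifngr1, close to the bound, was at 39, 38.4, 40.7 and 35.7 RPKM untreated and 24.3, 25.5, 26.5 and 26.4 after LPS/IFNγ. Monocyte markers summed to 225 to 295 RPKM untreated and 256 to 368 after LPS/IFNγ, and plasmacytoid dendritic cell markers to 2.89 to 3.41 and 2.57 to 3.72. Ly6c2 made up most of the monocyte sum. Of 8 tested monocyte markers 1 was called higher (Fcgr1) and 4 lower (Ccr2, Csf1r, Cx3cr1 and F13a1). Their median log2 change was −0.37. Of 6 tested plasmacytoid dendritic cell markers 1 was called lower, Cd300c, from 0.394 to 0.0204 RPKM. The part of such cells in the response was not tested.

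With IL4, the N2 polarizer, none of the 35 tested genes was called in the fit without the preparation block, where 1.62% of 13097 genes were called higher and 0.0458% lower. With the block 1 gene, Zbp1, was called higher (2.38% of all genes), and with all 24 libraries in 1 fit Ifit2 was called lower. Both are described below. By unadjusted p under 0.05 from limma, 1 gene was higher (Dtx3l, against 6.88% of all genes) and 4 were lower (Ifit2, Oasl1, Cmpk2 and Sp100, against 2.83%). The family leaned down slightly, with a median log2 difference of −0.09 against 0.02 for all genes, and 11 of 35 were above 0 (31.4%, against 54.2% of all genes). For 15 of the 35 the 95% interval lay within 1.5-fold in either direction, and with the block for 23, so larger differences lie outside the interval for those genes. Within all 4 preparations Oasl2, Zbp1 and Dtx3l were higher, 3 of 35 where 16.4% of all genes were. In the same sense 9 of 35 were lower, against 9.47% of all genes: Ifit2, Oasl1, Dhx58, Rsad2, Cmpk2, Trim25, Trim30a, Rtp4 and Sp100. Without preparation 10 the median log2 difference was −0.10 and 14 of 35 were above 0 (40.0%, against 49.8% of all genes).

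With IGF1 none of 35 genes was called in the fit without the block, with 1.57% of 13093 genes higher and 0.0535% lower, and by unadjusted p under 0.05 from limma 5 were higher (Zbp1, Adar, Parp9, Dtx3l and Ifi35, against 7.87% of all genes). On the same measure Ifit2, Oasl1, Cmpk2 and Sp100 were lower, 4 of 35 against 3.02%. IL4 and IGF1 were compared with the same untreated libraries, so their values are not independent. The median log2 difference with IGF1 was −0.06, and 14 of 35 genes were above 0 (40%, against 54.0%). Without preparation 10 the median was −0.01 and 17 of 35 were above 0 (48.6%, against 52.4%), and within preparation 11 alone the median was 0.11. Within all 4 preparations 8 genes were higher (18.8% of all genes), namely Oas1a, Oas1g, Oasl2, Zbp1, Adar, Parp9, Dtx3l and Ifi35. The 7 lower ones (10.2%) were Ifit2, Ifit3b, Oasl1, Rsad2, Cmpk2, Trim30a and Sp100.

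Zbp1 was the one gene of the family that was called with each factor once libraries were compared within preparations. It stood at 1.16, 0.543, 0.385 and 0.805 RPKM untreated, 1.56, 1.06, 0.797 and 1.29 with IL4 and 1.78, 1.33, 0.881 and 1.97 with IGF1. The groups overlapped, yet each treated library was above the untreated one of its preparation. With IL4 the log2 difference was 0.69 (95% interval −0.01 to 1.39, adjusted p = 0.524 by limma), and with preparation as a block the interval was 0.36 to 1.01 and the adjusted p = 0.0446. Over all alternatives this p ran from 0.0391 to 0.998. With IGF1 its difference was 0.98 (0.22 to 1.75, adjusted p = 0.292 by limma), and with the block the adjusted p was 0.0147, in a range of 0.00971 to 0.733. The block calls 2.38% of all genes higher with IL4 and 2.4% with IGF1. These levels stay far under the 184 RPKM mean of Zbp1 after LPS/IFNγ.

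Oasl2 and Oasl1 lie 11 kb apart on chromosome 5 and, with IL4 as with IGF1, differed from untreated in opposite directions within every preparation. Oasl2 was at 17.9, 9.24, 11.2 and 13.1 RPKM untreated, 25.8, 12.5, 20.1 and 16.2 with IL4 and 25, 12.6, 18.9 and 16.1 with IGF1. The log2 differences were 0.53 and 0.49 (adjusted p = 0.575 and 0.554 by limma). With the block the adjusted p was 0.0284 and 0.0248 (0.0244 to 0.913 and 0.0168 to 0.827 over the alternatives), and both differences were under the 1.5-fold bound. Oasl1 was at 1.47, 1.44, 1.3 and 1.28 RPKM untreated, 0.979, 1.19, 1.01 and 0.952 with IL4 and 1.14, 1.07, 0.894 and 1.03 with IGF1. Its treated libraries all lay below the untreated ones, with log2 differences of −0.38 and −0.38 (adjusted p = 0.26 and 0.216 by limma). Oasl1 was also lower than untreated in every preparation with 10 ng/mL insulin (1.06, 1.34, 0.95 and 1.08 RPKM). With 100 ng/mL insulin it was at 1.1, 1.08, 1.01 and 1.51 RPKM, higher than untreated in preparation 11 only. All these comparisons share the same untreated libraries. Both genes rose after LPS/IFNγ.

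Among genes whose IL4 or IGF1 libraries all lay below the untreated ones, Ifit2 had the largest difference. It was at 2.74, 2.78, 3.34 and 3.15 RPKM untreated, 2.167, 2.06, 1.38 and 1.8 with IL4 and 2.24, 2.14, 1.41 and 2.29 with IGF1. Preparation 10, the highest untreated library, was the lowest with either factor. Samd9l, Mki67, Trim30a and Eif2ak2 were also lowest in those IL4 and IGF1 libraries, as described below. The log2 differences were −0.68 (−1.02 to −0.35, adjusted p = 0.0612 by limma) and −0.57 (−0.93 to −0.21, 0.163). With all 24 libraries in 1 fit, Ifit2 was called lower with IL4 (adjusted p = 0.0189 by limma), whereas the block gave an adjusted p of 0.0812. Sp100 was at 26.1, 23.4, 24.6 and 24.2 RPKM with IL4 and 24.5, 23.8, 24.4 and 25.5 with IGF1, below every untreated library, with log2 differences of −0.24 and −0.24. Those of Cmpk2 were −0.21 and −0.19, again without overlap. Rsad2 was at 10.3, 9.37, 6.1 and 5.7 RPKM untreated and at 8.11, 7.83, 4.54 and 3.91 with IL4, so that preparations 6 and 9 stayed above 10 and 11 in both groups. Within preparations it was lower in 4 of 4, with a log2 difference of −0.39 (adjusted p = 0.741 by limma, 0.035 with the block, 0.0292 to 0.998 over the alternatives).

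Ifi35, which binds the signalling protein Nmi, was higher with IGF1 by less than the bound. It was at 4.73, 5.05, 4.51 and 5.01 RPKM untreated and 6.0, 6.59, 6.08 and 6.39 with IGF1, without overlap. The difference of 0.37 (SE 0.07, adjusted p = 0.0341 by limma) is 1.29-fold. With IL4 the libraries were mixed, at 4.53, 6.84, 6.19 and 4.62 RPKM. The Parp9 and Dtx3l pair was also above untreated without overlap with IGF1, by 0.17 and 0.19, and Adar by 0.13. Genes without overlap numbered 4 above and 4 below with IGF1, where 5.71% and 2.13% of all genes were, and 1 above and 4 below with IL4 (4.99% and 1.72%).

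**Figure D2:**
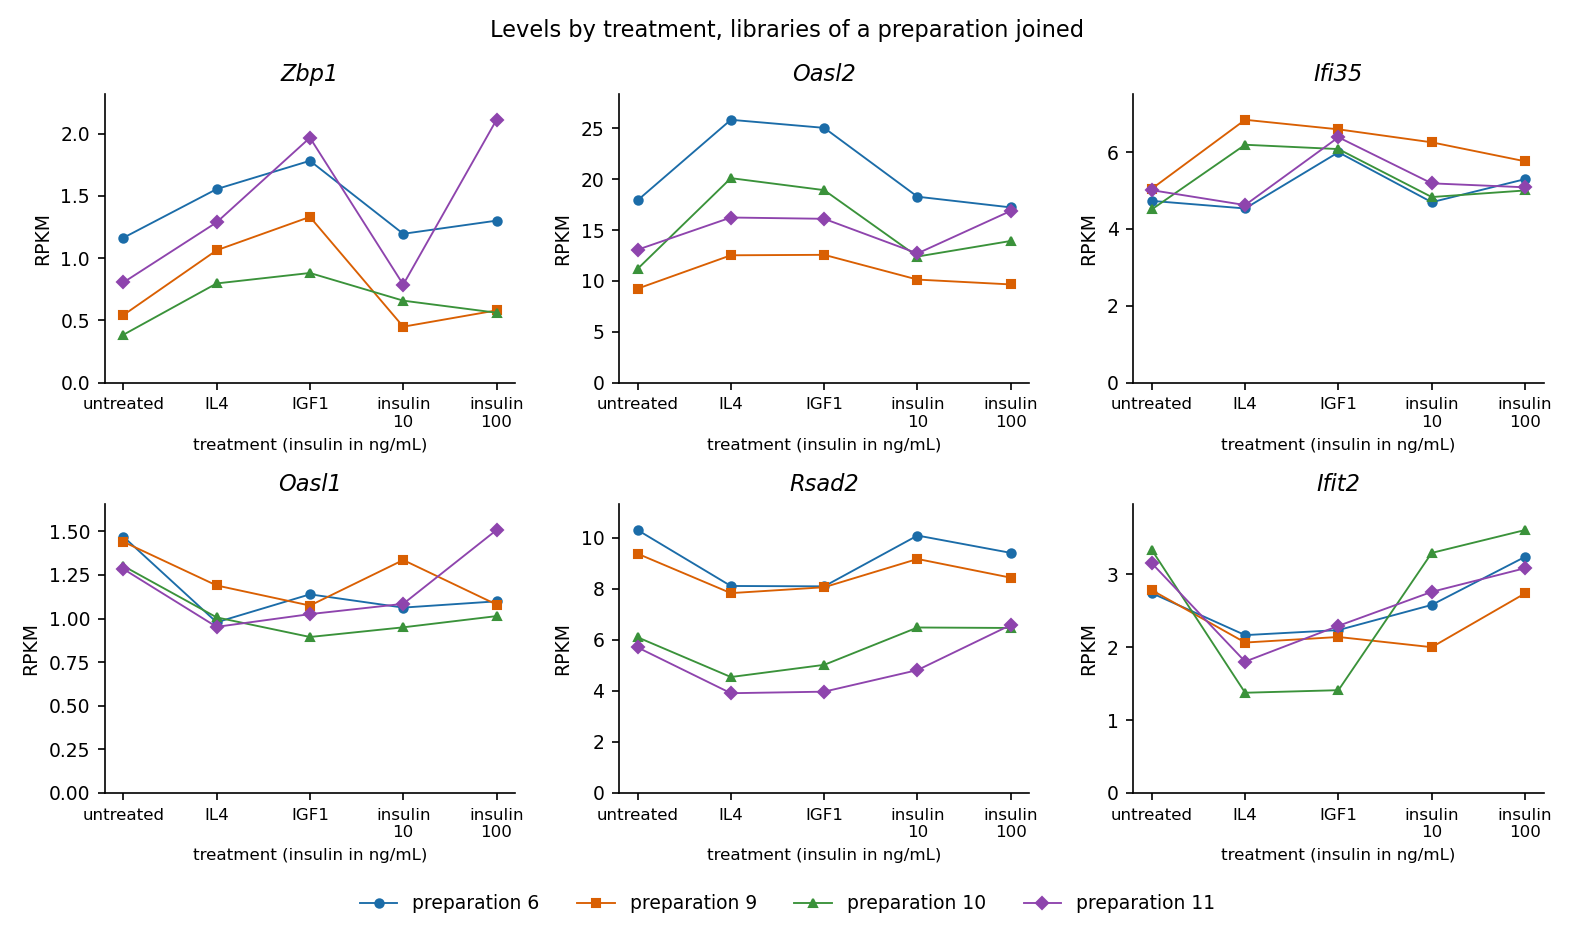
RPKM of Zbp1, Oasl2, Ifi35, Oasl1, Rsad2 and Ifit2 (1 panel each, linear axis) in untreated, IL4, IGF1 and insulin 10 and 100 ng/mL libraries, with a line joining the libraries of each preparation. The Zbp1 and Oasl2 lines go up and the Oasl1 and Ifit2 lines go down from untreated to IL4 and to IGF1 in all 4 preparations.

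Irf7 rose with both factors. It was at 5.44, 3.83, 4.15 and 3.95 RPKM untreated, 24.9, 16.5, 14.6 and 15.1 with IL4 and 24.2, 15.7, 15.5 and 14.6 with IGF1, without overlap. The log2 changes were 1.99 (SE 0.18, adjusted p = 6.68e-04 by limma) and 1.97 (SE 0.18, 6.05e-04). Of 35 tested genes of the signalling list 5 rose with each, against 1.62% of all genes with IL4 and 1.57% with IGF1. They were Irf7, Ifngr1, Jak2, Socs1 and Socs3 in both comparisons, which share their untreated libraries. Ifngr1 went from 38.4 to 66.1 and 67.3 RPKM, Jak2 from 33.2 to 61.5 and 59.5, Socs1 from 1.61 to 7.02 and 7.34, and Socs3 from 2.29 to 7.68 and 8.01. Stat2 was at 6.7 RPKM untreated, 7.51 with IL4 and 7.27 with IGF1 and was not called, nor was Irf9. No gene of the list was called with insulin at either dose (34 and 35 tested).

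Samd9l had the widest spread with IL4 and IGF1. It was at 118, 18.1, 7.62 and 76 RPKM with IL4 and 59.5, 43.1, 8.63 and 119 with IGF1, against 38.4, 81.9, 97.8 and 91.8 untreated. Preparation 10 was the lowest with both factors, and the differences of −1.12 and −0.85 had intervals of −3.09 to 0.84 and −2.60 to 0.89. The proliferation marker Mki67 was at 32.3, 71.4, 88.5 and 59.2 RPKM untreated, 81.2, 22.9, 11 and 50.7 with IL4 and 42.9, 48.6, 11.2 and 75 with IGF1, low in the same libraries of preparation 10. Other proliferation markers did not all follow it in preparation 10. Top2a was lower (45.6 RPKM untreated, 30.2 with IL4 and 29.6 with IGF1). Cdk1 was higher there (14.1, 15.8 and 15.5), and Birc5, Tpx2 and Ccnb2 were also above untreated with both factors. Trim30a was at 13.9, 9.17, 6.11 and 13.9 with IL4 and 13.8, 10.4, 5.35 and 13.6 with IGF1, and Eif2ak2 at 5.72, 3.96, 2.93 and 4.94 and 5.07, 4.5, 2.97 and 5.09, both lowest there too. Ifit2 was also lowest in the IL4 and IGF1 libraries of preparation 10. Of all libraries, these had the highest shares of mapped reads on genes, 89.3% and 90.1%. What these libraries share was not tested.

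IL4 and IGF1 were also set against each other. None of 35 genes was called either way among 13080 tested (0% of all genes by limma), and 24 of 35 were higher with IGF1 (68.6%, against 51.5% of all genes). By unadjusted p under 0.05 from limma there were 0 of 35 in either direction without the block (0.512% of all genes higher and 0.443% lower) and 4 with it (Oas1a, Zbp1, Parp14 and Rtp4, all higher with IGF1, against 1.87% of all genes). Ddx58 was the only gene of the family without overlap (0.352% of all genes), 0.04 higher with IGF1 on the log2 scale.

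Insulin at 10 ng/mL, the lower dose, moved none of 35 genes by limma, and no gene of the 13055 tested was called (0%). By unadjusted p under 0.05 from limma there were 0 higher (0.659% of all genes) and 1 lower, Oasl1 (0.674%). The median log2 difference was 0.00 against 0.02 for all genes, and 18 of 35 genes were above 0. Intervals lay within 1.5-fold for 20 of 35 genes, and for 33 with preparation as a block. Within all 4 preparations 2 genes were higher (Oas2 and Adar, against 9.71% of all) and 3 lower (Ifit2, Ifit3 and Oasl1, against 4.35%). Oas2 was at 5.53, 2.41, 3.23 and 4.76 RPKM untreated and 6.47, 3.03, 3.34 and 5.94 with insulin, higher in each preparation but overlapping between groups (log2 difference 0.22, unadjusted p = 0.0126 and adjusted p = 0.858 by limma with the block). Oasl1 was at 1.06, 1.34, 0.95 and 1.08 RPKM, lower in each preparation with a mean log2 difference of −0.29, and Adar at 13.9, 15, 14 and 13.5, higher by 0.09.

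Insulin at 100 ng/mL gave no call either among 35 genes, nor among all 13108 (0%). Small differences nevertheless pointed upward, with 31 of 35 genes above 0 (88.6%, against 54.8% of all genes) and a median log2 difference of 0.11 against 0.01. By unadjusted p under 0.05 from limma 2 genes were higher (Herc6 and Samd9l, against 1.68% of all) and 0 lower (0.771%). With the block 6 were higher (Isg15, Herc6, Zbp1, Trim30a, Rtp4 and Samd9l, against 5.56%). Within all 4 preparations 10 genes were higher and 0 lower, where 10.7% and 5.42% of all genes were. The 10 were Oas1g, Isg15, Herc6, Eif2ak2, Zbp1, Adar, Trim30a, Rtp4, Ifi35 and Samd9l. Reads of the family made up 0.260% ± 0.00947 of mapped reads (0.254% to 0.274%), above the untreated range of 0.229% to 0.24%. Without Samhd1 and Samd9l, the most abundant genes of the family, the share was 0.118%, 0.105%, 0.11% and 0.126% against 0.122%, 0.104%, 0.103% and 0.113% untreated, so the ranges overlapped and preparation 6 was below its untreated library.

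The upward lean was largest in preparation 11. The median log2 difference was −0.00, 0.06, 0.11 and 0.32 in preparations 6, 9, 10 and 11, and the number of genes above 0 was 17, 19, 25 and 34 of 35. The share of all genes above 0 was 56.5%, 43.4%, 52.7% and 62.3%. Without preparation 11, 24 of 35 were above 0 (68.6%, against 50.8%) with a median of 0.04.

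Isg15 was at 3.92, 3.38, 1.85 and 1.91 RPKM untreated and 5.07, 3.95, 2.02 and 2.84 with 100 ng/mL insulin. It was higher in 4 of 4 preparations, overlapping between groups, by 0.31 (unadjusted p = 0.00735 and adjusted p = 0.589 by limma with the block). Trim30a went from 15.4, 11.9, 12.6 and 14.2 to 15.8, 13.2, 14.8 and 18.3 RPKM and Rtp4 from 9.55, 5.92, 6.54 and 7.5 to 10.6, 6.21, 7.49 and 9.53, both higher in 4 of 4 with preparation 11 moving most in RPKM. Zbp1 was at 1.3, 0.581, 0.562 and 2.11 RPKM, where preparation 11 alone exceeded 2. Ifit3 was at 4.73, 1.17, 1.99 and 3.2 and Ifit3b at 3.81, 1.07, 1.1 and 2.72 RPKM, again with the largest step from untreated in preparation 11. Only Herc6 and Samd9l lay above every untreated library (2 of 35, against 1.41% of all genes). Herc6 was at 1.0, 0.765, 0.817 and 1.13 RPKM, against 0.75, 0.652, 0.731 and 0.713 untreated. Samd9l was at 104, 125, 120.0 and 115 RPKM, while Mki67 stood at 77.5, 92.6, 92.5 and 63.5. The other proliferation markers (Top2a, Cdk1, Ccnb2, Birc5 and Tpx2) were above untreated in some preparations and below it in others.

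**Figure D3:**
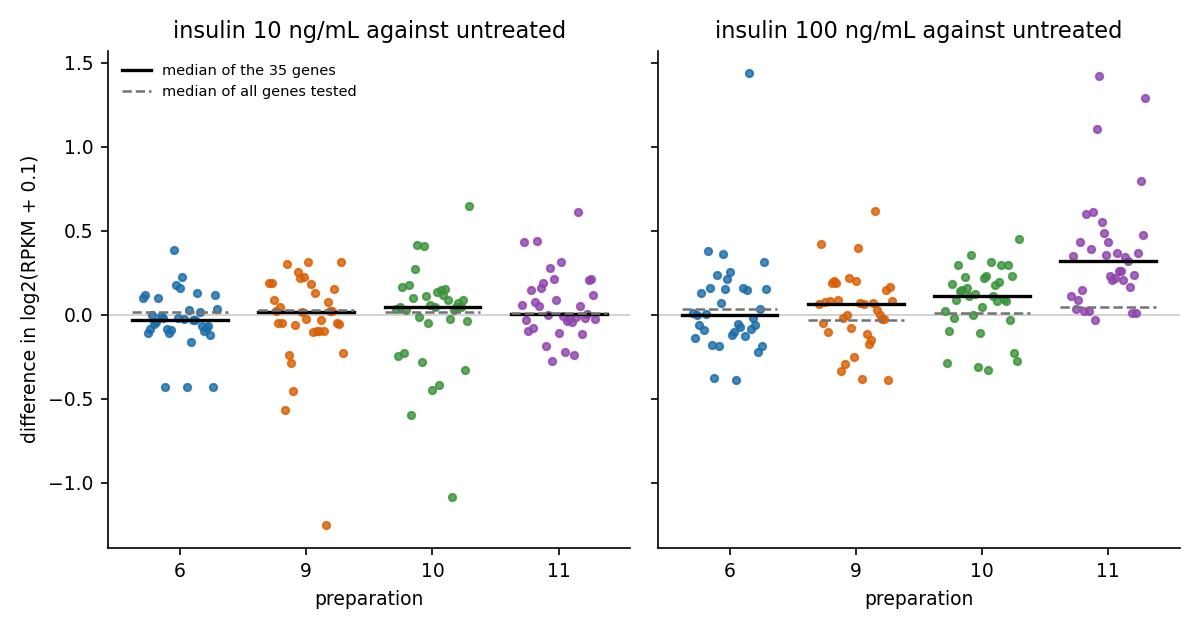
Difference in log2(RPKM + 0.1) from the untreated library of the same preparation for 35 genes (points), at 10 ng/mL (left) and 100 ng/mL insulin (right), by preparation. The black line is the median of the 35 genes and the dashed grey line that of all genes, and at 100 ng/mL the black line goes from −0.00 in preparation 6 to 0.32 in preparation 11.

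Between the insulin doses none of 35 genes was called among 13112 (0% of all by limma). The higher dose was above the lower in 28 of 35 (80%, against 46.1% of all genes), and in 20 of 35 without preparation 11 (57.1%, against 42.0%). By unadjusted p under 0.05 from limma 1 gene was higher with 100 ng/mL, Samd9l (3.48% of all genes), and 0 lower (0.831%). Samd9l was called higher when the 10 ng/mL library of preparation 11 was left out (log2 difference 1.55, adjusted p = 0.00218 by limma), and in that library it was at 140.4 RPKM against 34.3 to 46.1 in the other 3. Ddx58 was the only gene without overlap between the doses (1.08% of all genes).

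**Figure D4:**
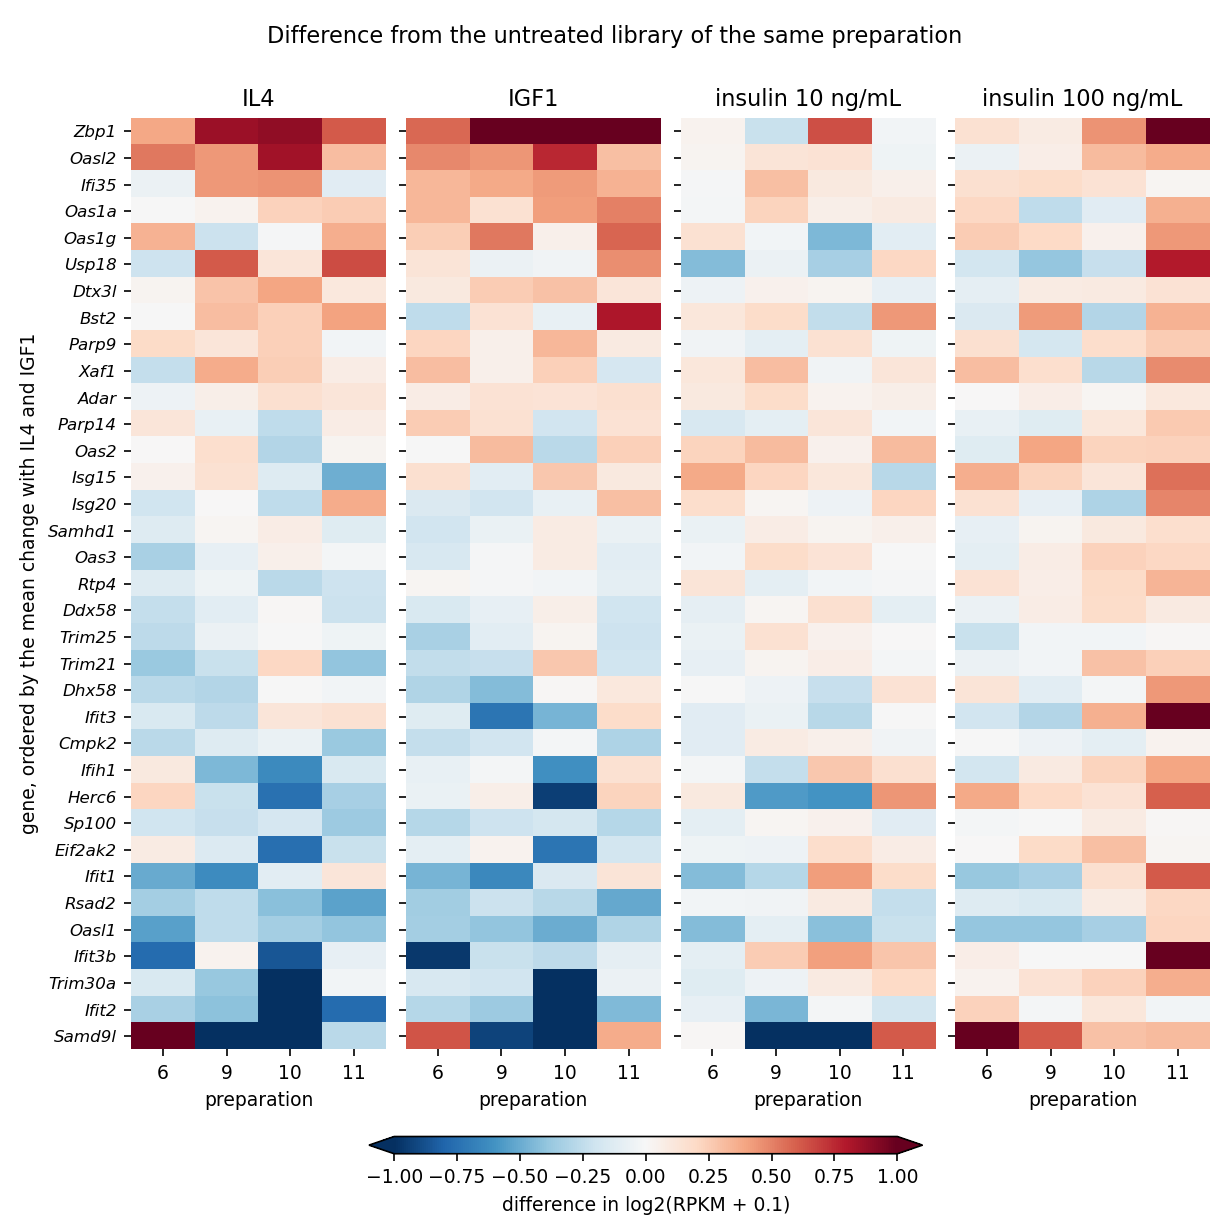
Heat map of the difference in log2(RPKM + 0.1) from the untreated library of the same preparation, for 35 genes (rows) in preparations 6, 9, 10 and 11 (columns) of IL4, IGF1, insulin 10 ng/mL and insulin 100 ng/mL. Colours run from −1 (blue) to 1 (red); Zbp1 and Oasl2 are red and Ifit2 and Oasl1 blue in every IL4 and IGF1 column, and 34 of 35 genes are above 0 in the last column.

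The level of many of these genes depended on the preparation. Over the 20 libraries without LPS/IFNγ, 20 of 36 tested genes differed between preparations by limma's F-test, where 36.8% of 14038 genes did. On the log2 scale the mean of preparation 6 was the highest one for 21 of the 36, whereas it was highest for 15.3% of all genes. Oas1g averaged 1.72, 0.323, 0.568 and 1.16 RPKM, a 5.34-fold range (adjusted p = 4.62e-09 by limma). Ifit3 averaged 4.99, 1.22, 1.51 and 1.86 RPKM, with preparation 6 alone standing high and a 4.10-fold range (adjusted p = 1.02e-06). Oas1a averaged 8.55, 3.41, 4.81 and 6.93 and Oas2 5.63, 2.88, 3.13 and 5.36 RPKM, high in preparations 6 and 11. Isg15 averaged 4.52, 3.64, 1.96 and 1.94 and Rsad2 9.2, 8.57, 5.72 and 4.99 RPKM, high in 6 and 9. Isg20 was highest in preparation 9, at 4.98, 5.76, 3.56 and 2.27 RPKM. In contrast Samhd1, Parp9, Dtx3l, Ddx58 and Cmpk2 differed little, by 1.03- to 1.07-fold between the highest and lowest preparation means, and were not called. Without preparation 6, an alternative chosen after seeing the data, 11 genes differed. That fit held fewer libraries and the share of all genes is not given for it, so the 2 counts cannot be compared.

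Cells other than neutrophils also differed by preparation. Erythroid markers summed to 2022 to 3184 RPKM in preparation 6, 5185 to 6125 in 9, 1307 to 1548 in 10 and 608 to 674 in 11. B lineage markers summed to 511 to 547, 663 to 739, 449 to 519 and 672 to 730 RPKM. Plasmacytoid dendritic cell markers summed to 2.98 to 4.13, 3.11 to 3.91, 2.02 to 2.89 and 3.41 to 4.11 RPKM. All these sums are over the libraries without LPS/IFNγ. The part of such cells in the differences was not tested. After LPS/IFNγ Ifit3 was at 233, 149.8, 207 and 193 RPKM, so the ratio to untreated was 43.0, 102, 135 and 135. For Isg20 the ratio was 5.53, 4.57, 7.35 and 17.4.

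**Figure D5:**
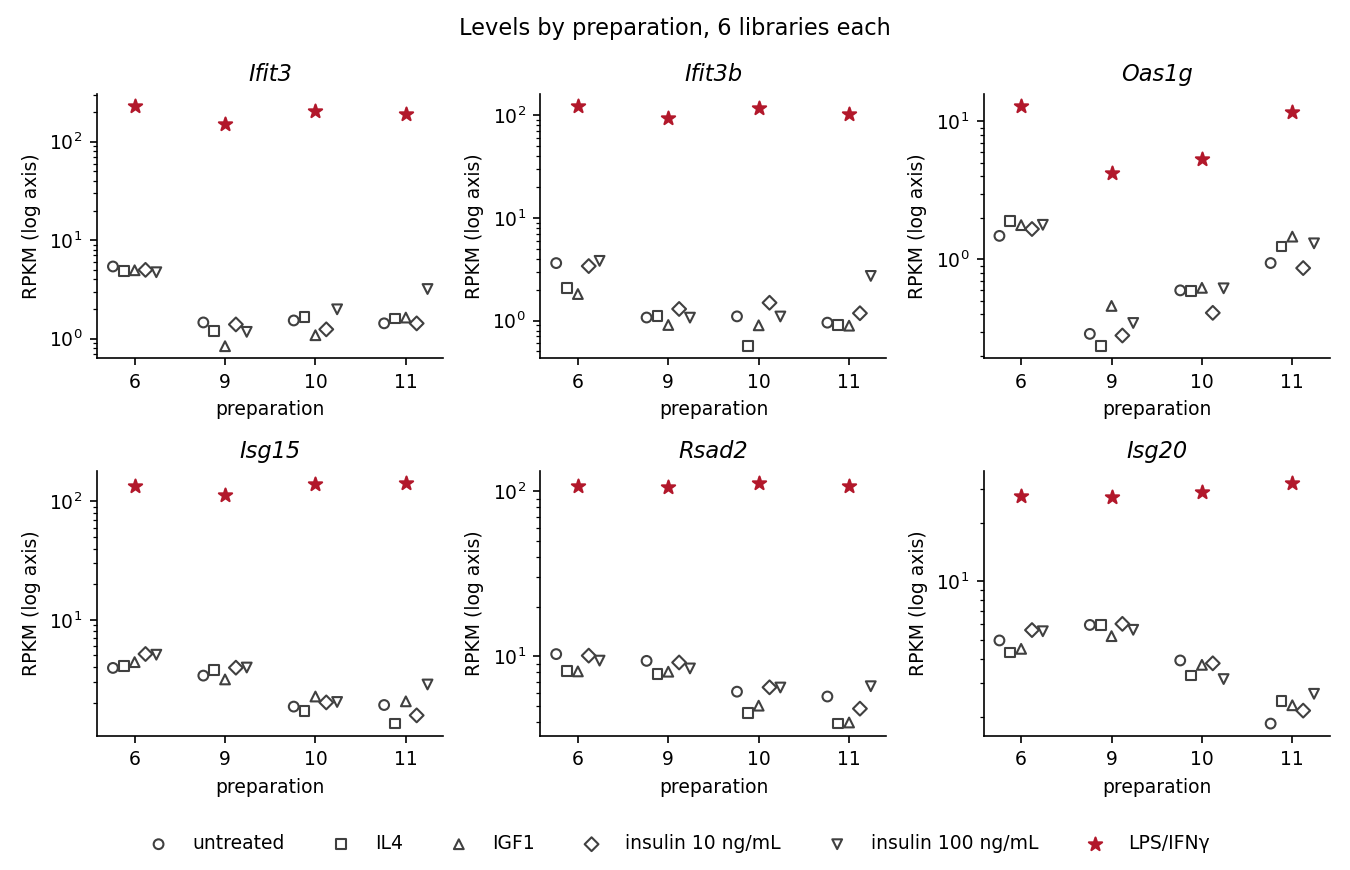
RPKM (log axis) of Ifit3, Ifit3b, Oas1g, Isg15, Rsad2 and Isg20, 1 panel each, by preparation. Open symbols are the 5 libraries without LPS/IFNγ and the red star is the LPS/IFNγ library; the open symbols of Ifit3 average 4.99 in preparation 6 and 1.22 to 1.86 in the others.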

How the data were processed

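RNA-seq of 24 libraries was read from tables of RPKM per gene that the authors deposited, made with CLC Genomics Workbench on mouse genome GRCm38 after base calling with bcl2fastq 2.17.1.4 (submitters' processing notes). RPKM is a share of reads, so a rise of some genes lowers others. The RPKM values were whole reads at the annotated exon length for 14722 of 21058 genes above 0, and at a fitted length for 6336 (within 0.0001 reads), so the libraries' 18748634 to 30925209 mapped reads could be recovered. Positions are from the GENCODE annotation of GRCm38.

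Groups came from the labels. The 38 genes and all lists were chosen with earlier results of these data known, so counts over them are descriptions. For each comparison limma 3.58.1 (trend and robust moderation, two-sided) was fitted in R 4.3.3 to log2(RPKM + 0.1) of genes with at least 0.1 RPKM in 4 or more of the 8 libraries. Calls needed an adjusted p under 0.05 (Benjamini-Hochberg over all genes tested) and 1.5-fold. The fit was tested on simulated reads without differences between preparations, so that test does not cover such differences. Libraries of the same number correlated in their deviations from group means in all 60 pairs (lowest r 0.182, median 0.356), against a median of −0.106 for 180 other pairs, and all 24 were closest to their own number. The numbers come from the file headers. A fit with that number as a block is printed where it changes a call.

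All 38 genes are named with both levels. All libraries are printed for the 8 largest and 4 smallest changes after LPS/IFNγ, for genes called elsewhere with or without the block, and for the 3 with the smallest blocked p in each other comparison with untreated. Further genes were added after their values were seen. Alternatives were the pseudocount, the filter, median-of-ratios scaling, the fold bound, 1 fit over all libraries, plain moderation, voom on the recovered reads, and leaving out each library and each preparation. Python 3.11.15, pandas 2.3.3 and matplotlib 3.10.9 were used for tables and figures. One gene of the signalling list is not reported here.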

Additional observations from a re-analysis of the deposited data

Results flagged for a closer look

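In 19 of 228 gene and group combinations (8.33%) the highest or lowest of 4 libraries stood apart from the other 3 by Dixon's criterion at the 95% level, where chance gives about 1 in 20. Preparation 6 was the high library for Ifit3 in untreated cells (5.41 RPKM, others up to 1.53), with IL4 (4.85, others up to 1.68) and with 10 ng/mL insulin (5.00, others up to 1.43). Ifit3b was high in the same preparation in untreated cells (3.63 RPKM), with IGF1 (1.81) and with 10 ng/mL insulin (3.39), as was Bst2 with 10 ng/mL insulin (2.47). Mx2 was listed at 0 in the IGF1 library of preparation 6, and the others had 0.0358 to 0.0403 RPKM. Samd9l was low in preparation 6 after LPS/IFNγ (205 RPKM, others from 258).

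Preparation 9 was the low library after LPS/IFNγ for Ifit1 (41.2 RPKM, others 55.5 to 58.4), Usp18 (12.5) and Eif2ak2 (33.7), and with IGF1 for Dhx58 (1.74). Preparation 10 was high for Rsad2 after LPS/IFNγ (112 RPKM, others 107) and low for Trim21 in untreated cells (2.67). Preparation 11 was high for Trim21 after LPS/IFNγ (39.3 RPKM), for Ddx58 (10.7) and Dtx3l (8.80) with 100 ng/mL insulin, and for Samd9l with 10 ng/mL insulin (140.4, others 34.3 to 46.1).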

How the results depend on the processing

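After LPS/IFNγ the count of genes called higher was 34 to 37 under every alternative tried (34 to 36 with libraries or preparations left out), and the median log2 change 3.25 to 3.78. The genes that lost a call were Mx1, Mx2 and Samd9l. Trim25 turned from −0.03 to 0.21 under median-of-ratios scaling. With preparation as a block, with or without voom, 1 gene (Zbp1) was called higher with IL4 and 1 (Zbp1) with IGF1. The fit without the block called 0, and the block changed no other call among the 38 genes. With all 24 libraries in 1 fit, 1 gene (Ifit2) was called lower with IL4. Without a fold bound, 1 gene (Ifi35) was called higher with IGF1. Between insulin doses the count ran from 0 to 1 with libraries left out, the 1 being Samd9l without the 10 ng/mL library of preparation 11 or without that preparation. The number of genes that differed between preparations ran from 11 (without preparation 6, chosen after seeing the data) to 23, and up to 22 with libraries or preparations left out. The share of all genes is not given for these alternatives. The causes were not tested. Of 1165 values for single genes, 1156 kept direction and call. Most of these values belong to changes after LPS/IFNγ, so the count says little about the small differences with IL4, IGF1 and insulin. Under about 0.1 RPKM a gene rested on few reads, as for Mx1, Mx2 and Ifi44.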

Other observations

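Libraries of the LPS/IFNγ group were closer to each other than untreated libraries for many of these genes. Over 23 genes with at least 100 reads in each untreated library, the ratio of the highest to the lowest library had a median of 1.29 untreated and 1.15 after LPS/IFNγ, and it was wider untreated for 16 of the 23 (69.6%, against 40.6% of 7512 genes with as many reads). All genes had medians of 1.19 and 1.22. Among these 23 genes the ratio went from 2.29 to 1.47 for Oas2, from 1.94 to 1.13 for Oasl2, from 1.81 to 1.05 for Rsad2 and from 1.43 to 1.08 for Trim21. Most of the 23 genes had more reads after LPS/IFNγ (for Trim21 at least 210 reads in each untreated and 2160 in each treated library). Ratios from fewer reads spread more, and the genes compared with did not gain reads as a set. These ratios were chosen after seeing the data, and their cause was not tested.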
